A study of Mus musculus with 15 samples.

Results

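The 37 genes described here belong to glycolysis and to the transcriptional response to low oxygen. They were taken by symbol from a list of 3 glucose and lactate transporters, 16 glycolytic enzymes, 3 control kinases and 15 genes of oxygen sensing and hypoxia response. All 37 were found among the 55359 genes of each deposited table, and 36 had enough counts to be tested among 14548 genes. P4ha2, which encodes a collagen prolyl hydroxylase subunit, was not tested. RNA was sequenced from mouse hematopoietic progenitors of fetal liver origin that are kept growing by a Hoxb8 construct in medium with β-estradiol. Cells were incubated with a retrovirus for 2 days and sorted for GFP, so every group carries the Hoxb8 construct and a virus. The wild-type line, hi-Ddx41+/+, received empty vector (WT empty). In the heterozygous line, hi-Ddx41+/-, 1 group received the empty vector (Het empty). Another received a vector for wild-type DDX41 (Het DDX41), and the remaining groups received vectors for the G173R and R525H forms (Het G173R and Het R525H). The DDX41 protein, a DEAD-box helicase, is altered in inherited predisposition to myeloid neoplasms. Each of the 5 groups has 3 libraries, numbered 1 to 3 in the sample titles. Each genotype is represented by 1 line, so the Ddx41 genotype and other differences between the lines cannot be told apart. Nothing states that libraries of a group come from separate cultures, and p-values then measure only the spread between these libraries, which may be technical.

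Glycolysis converts glucose to pyruvate in the cytosol. Where oxygen is scarce or growth is fast, much of the pyruvate becomes lactate, which regenerates NAD+ and leaves the cell through monocarboxylate transporters. The oxygen-labile subunit HIF-1α is marked for destruction by prolyl hydroxylases of the Egln family. When these enzymes lack oxygen, HIF-1α accumulates as a protein and binds hypoxia response elements near genes of glucose uptake, glycolysis, mitophagy and vessel growth. Hematopoietic stem and progenitor cells are known for a strong reliance on glycolysis, and the fetal liver and bone marrow in which they reside are low in oxygen.

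The promoters are shown because they cover the behaviours described in the following paragraphs: the lactate exporter gene called between genotypes (Slc16a3), 2 hypoxia targets high in libraries numbered 3 (Bnip3 and Ero1a), an enzyme gene that was high there but lacks the motif (Tpi1), and Hif1a, whose level by counts was flat. Each is the 250 bases before the RefSeq gene start in build GRCm38.p6, read 5′ to 3′ on the gene's strand. Capitals mark each match to ACGTG or GCGTG, the core letters of the hypoxia response element, on either strand (CACGT and CACGC on the other), and a CACGTG holds the core on both strands.
Slc16a3 (chr11:120948817-120949066, plus strand): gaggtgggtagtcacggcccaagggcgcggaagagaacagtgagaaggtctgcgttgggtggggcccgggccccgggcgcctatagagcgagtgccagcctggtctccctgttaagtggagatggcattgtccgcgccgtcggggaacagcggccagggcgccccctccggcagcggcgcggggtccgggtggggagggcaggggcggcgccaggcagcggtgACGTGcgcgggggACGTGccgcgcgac
Bnip3 (chr7:138909507-138909756, minus strand): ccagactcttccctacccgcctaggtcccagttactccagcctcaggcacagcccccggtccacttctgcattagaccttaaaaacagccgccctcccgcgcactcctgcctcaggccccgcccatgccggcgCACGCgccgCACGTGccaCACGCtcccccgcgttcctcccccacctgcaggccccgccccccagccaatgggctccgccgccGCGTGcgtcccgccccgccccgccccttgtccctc
Ero1a (chr14:45318573-45318822, minus strand): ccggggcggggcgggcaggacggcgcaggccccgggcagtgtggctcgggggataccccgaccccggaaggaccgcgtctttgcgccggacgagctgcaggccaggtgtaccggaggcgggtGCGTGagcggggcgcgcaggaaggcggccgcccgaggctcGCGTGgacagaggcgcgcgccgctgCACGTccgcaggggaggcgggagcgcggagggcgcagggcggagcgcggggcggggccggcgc
Tpi1 (chr6:124814159-124814408, minus strand): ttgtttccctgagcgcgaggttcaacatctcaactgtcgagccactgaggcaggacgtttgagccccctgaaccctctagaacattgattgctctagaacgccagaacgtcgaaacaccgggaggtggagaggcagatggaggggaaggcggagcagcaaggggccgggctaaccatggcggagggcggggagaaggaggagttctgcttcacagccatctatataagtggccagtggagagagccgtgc
Hif1a (chr12:73907617-73907866, plus strand): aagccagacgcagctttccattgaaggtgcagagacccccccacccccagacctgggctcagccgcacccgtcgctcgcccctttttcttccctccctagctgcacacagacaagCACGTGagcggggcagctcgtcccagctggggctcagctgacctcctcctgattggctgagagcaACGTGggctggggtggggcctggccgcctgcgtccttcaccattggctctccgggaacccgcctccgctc
The Slc16a3 window holds 2 cores, whose first bases lie 27 and 14 bases before the start. The windows of Bnip3, Ero1a and Hif1a hold 5, 3 and 3, and that of Tpi1 holds none. Of the 37 genes, 34 were matched in the RefSeq promoter table (250 bases before to 50 after the start), and Slc2a3, Bnip3l and Ndrg1 were not. A core was present in at least 1 listed promoter of 31 of these 34 genes (91.2 percent), and in 46.7 percent of all 27025 genes of that table. Counted by promoter instead of by gene, the shares were 80 and 43.8 percent. CACGTG alone, which overlaps the ACGTG matches, was present in 14.7 percent of the genes and 8.1 percent of all genes. Gpi1, Tpi1 and Eno2 had no core in these windows. A match describes letters in a window and shows no binding. Both cores contain CG, and the windows were not matched for base composition, whose part in these shares was not tested.

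Libraries held between 22104066 and 49145873 expected counts, and the 37 genes took between 1.861 and 4.156 percent of them. Ddx41 averaged 59.3 ± 3.94 CPM (counts relative to TMM-scaled library totals, SD, n = 3) in WT empty and between 30.3 and 33.3 in the 4 heterozygous groups. Against Het empty the Ddx41 counts of the groups with a DDX41 vector had log2 differences of 0.13, 0.13 and 0.08 for DDX41, G173R and R525H, each with an SE of 0.11 and an adjusted p of 1 in edgeR. Counts of the mouse gene therefore do not check the vectors, whose level was not analysed here. The progenitor genes Cd34, Kit, Myb and Flt3 were present in every library, with lowest levels of 1293, 435, 488 and 175 CPM, while Cd48 and Hoxa9 were at or near 0. Alb and Ttr of hepatocytes and Col1a1, Col3a1 and Cdh5 of stroma and vessels were at 0 in every library. Of the same list Afp, Apoa1 and Kdr reached at most 1.25, 0.0544 and 0.245 CPM. Pdgfrb, a stroma gene of that list, was present in every library at 70.2 to 107 CPM. Its level was called lower in Het empty than in WT empty (log2 -0.45, SE 0.08, edgeR adjusted p = 0.00289). For 12 of the 15 libraries the code in the file name is that of another group, and groups here follow the sample titles. In every group the library numbered 3 stood apart from numbers 1 and 2, and the labels do not say what a number marks. Comparisons between groups are therefore given with all libraries and with libraries 1 and 2 alone. Library number was also used as a replicate block where the deviations of same-numbered libraries had correlations above 0.1. The shift of library 3 alone can make these correlations positive. They cannot decide whether the other libraries pair by number, and the blocked calls rest on a pairing that was not established.

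Levels between genes were compared in TPM, which is scaled by transcript length. Enzymes of the later steps were the most abundant. Gapdh, glyceraldehyde-3-phosphate dehydrogenase, had a median of 2856.53 TPM over the 15 libraries (2306.08 to 3929.22) and Eno1, enolase, 1833.46 (1515.6 to 2333.13). Aldoa (aldolase), Ldha (lactate dehydrogenase), Pgk1 (phosphoglycerate kinase) and Pkm (pyruvate kinase) followed with medians of 1376.48, 1188.83, 1018.26 and 1012.58 TPM, and their ranges overlapped. The first steps were lower: glucose transporters Slc2a1 and Slc2a3 had medians of 42.79 and 40.17 TPM, and hexokinases Hk2 and Hk1 77.64 and 63.05. Among the phosphofructokinase genes Pfkp had the highest median (118.28 TPM), then Pfkl (70.48) and Pfkm (20.68), and the range of Pfkm, up to 31.69, lay below those of the other two. Isoforms typical of nerve tissue were nearly silent: Aldoc and Eno2 had medians of 0.5 and 0.38 TPM. Of the hypoxia targets Ero1a, an oxidase that forms disulfide bonds in the endoplasmic reticulum, stood out with a median of 810.81 TPM and a range of 567.21 to 2245.68. That median exceeded those of Pgam1 (769.29), Tpi1 (631.67) and Gpi1 (490.06), and the ranges overlapped. Adm and P4ha2 had medians of 0.05 and 0 TPM. Counts were not whole in 14 or 15 libraries for Pfkp, Gapdh, Pgk1, Pgam1, Eno1, Pkm, Bnip3 and Bnip3l, in 11 for Hif1a and Higd1a, in 6 for Ankrd37 and in 4 for Mxi1, so part of their reads was divided with other genes and their values carry that uncertainty.

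**Figure D1:**
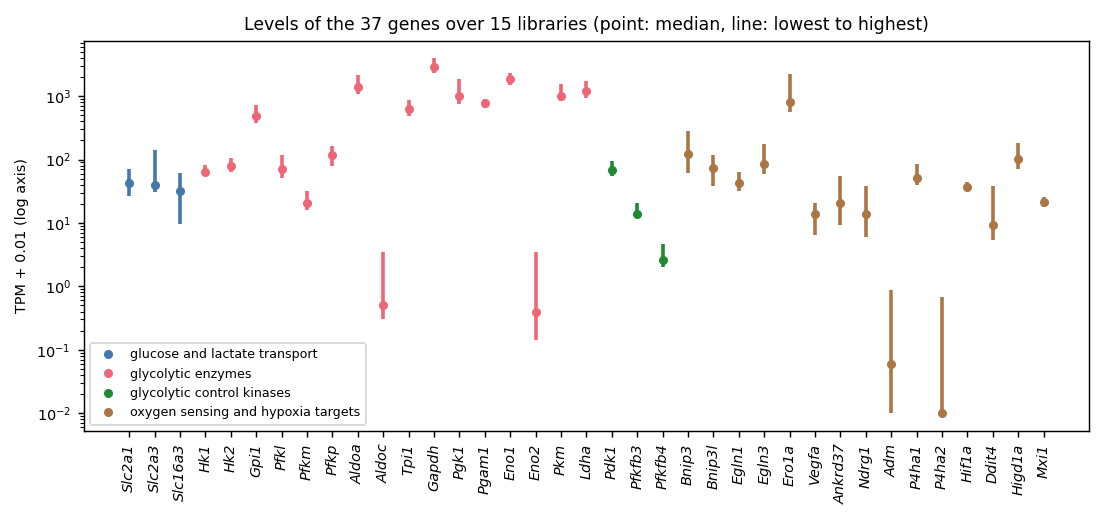
Median TPM (points) and lowest to highest TPM (lines) of the 37 genes over the 15 libraries, on a log axis after adding 0.01, coloured by role. Gapdh is highest with a median of 2856.53 TPM, Ero1a reaches the range of the enzymes, and Aldoc, Eno2, Adm and P4ha2 have the lowest medians.

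The heterozygous and wild-type lines were compared with empty vector in both. Slc16a3, the exporter of lactate also known as MCT4, was the 1 gene of the 36 called higher (adjusted p under 0.05 over all genes tested), and 0 were called lower; over all genes tested 1.9 percent were called higher and 1.75 percent lower in edgeR. It measured 19.8, 21.2 and 43.1 CPM in libraries 1 to 3 of WT empty and 52.2, 73.6 and 103 in Het empty. All 3 heterozygous libraries were above all 3 wild-type ones, which held for no other of the 36 genes and for 8.33 percent of all genes tested. The log2 fold change was 1.44 (SE 0.36, 95 percent interval 0.66 to 2.22, edgeR adjusted p = 0.0419), a fold of 2.71. The call was lost without WT empty 1 or 2 or Het empty 2 or 3 (adjusted p = 0.21, 0.174, 0.103 and 0.17), in a fit of these 2 groups alone (0.0721) and with a minimum of 1 CPM (0.0551). With libraries 1 and 2 alone the log2 fold change was 1.62 (adjusted p = 3.95e-05), and with the replicate block 1.48 (1.14e-06).

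Most of the other genes had smaller positive differences, which were called with the replicate block or in libraries 1 and 2 alone and not in the fit of all libraries without the block. Of the 36 genes 31 had a positive log2 fold change, beside 49.8 percent of all genes tested, and the median was 0.36 beside 0. In each of the 3 same-numbered pairs Het empty was the higher library by CPM for 28 of the 36, beside 23.3 percent of all genes tested. With library number as a block 20 of the 36 were called higher and 0 lower, beside 4.54 and 4.75 percent of all genes tested. In libraries 1 and 2 alone 25 of the 35 tested were called higher, beside 3.94 percent. The median difference within pairs was 0.39, 0.44 and 0.22 on the log2 scale for numbers 1, 2 and 3. An unadjusted p under 0.05 was reached by 7 of the 36, beside 11.6 percent of all genes. DESeq2 and limma voom, without the block, each called 1 gene higher.

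Among the transporters Slc2a1, the basal glucose carrier GLUT1, measured 82.2, 87.9 and 141 CPM in WT empty and 127, 155 and 186 in Het empty. Its groups overlapped, as WT empty 3 was above Het empty 1, and it was called with the block alone (log2 0.62, SE 0.1, edgeR adjusted p = 0.000809; 0.391 without the block). Slc2a3, the high-affinity carrier GLUT3, had a log2 fold change of 0.17 (95 percent interval -1.32 to 1.66) and was not called in either fit. Of the 16 enzymes 0 were called without the block and 10 with it.

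The enzymes called with the block ran from the second step of glycolysis to its end, in libraries that overlapped between the groups. Gpi1, glucose-6-phosphate isomerase, measured 787, 916 and 1121 CPM in WT empty and 1058, 1269 and 1360.3 in Het empty. Pfkp, the platelet-type phosphofructokinase, measured 282, 290.5 and 388 CPM in WT empty and 377, 442 and 469 in Het empty. Aldoa measured 1333, 1569 and 1999 CPM in WT empty and 1752, 2146 and 2512 in Het empty. By CPM, WT empty 3 was higher than Het empty 1 in each of the 3 genes, while each heterozygous library exceeded its same-numbered partner. Tpi1, triose-phosphate isomerase, measured 641, 746 and 955 CPM in WT empty and 839, 1035 and 1192 in Het empty. Gapdh measured 2404, 2877 and 3531 CPM in WT empty and 3332, 3627 and 4353 in Het empty. Pgam1, phosphoglycerate mutase, measured 994, 1135 and 1289 CPM in WT empty and 1244, 1394 and 1426 in Het empty. The pattern of overlap was that of Gpi1 in all 3. Eno1 measured 2551, 3062 and 3734 CPM in WT empty and 3425, 3954 and 4355 in Het empty. Pkm measured 1719, 2015 and 2598 CPM in WT empty and 2275, 2727 and 3165 in Het empty. Ldha, which converts pyruvate to lactate, measured 1224, 1409.9 and 1849 CPM in WT empty and 1598, 1930 and 2297 in Het empty. Again WT empty 3 lay above Het empty 1 in each. With the block the log2 fold changes of these 9 genes lay between 0.25 (Pgam1, SE 0.06, edgeR adjusted p = 0.015) and 0.44 (Pfkp, SE 0.07, 0.00125), and Pgk1, the remaining enzyme called, had 0.48 (SE 0.11, 0.00885). Without the block their adjusted p-values ran from 0.245 for Pgam1 to 0.736 for Pgk1. By TPM, Het empty 3 was below WT empty 3 for Gapdh (3246.46 against 3437.84) and Pgam1 (777.1 against 892.77). The same held for Gpi1, Aldoa, Tpi1, Eno1, Pkm and Ldha, and not for Pfkp or Pgk1. In the pairs numbered 1 and 2 Het empty had the higher TPM for all of them. Differences in TPM were not tested.

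Hk1 and Hk2, the hexokinases that capture glucose in the cell, were not called. Hk1 had a log2 fold change of -0.04 (95 percent interval -0.22 to 0.15) and Hk2 of 0.10 (-0.21 to 0.41). Neither was called with the block, and no test compared them with the other enzymes. By TPM, which was not tested, Hk1 was lower in Het empty, at 60 to 62.97 against 80.74 to 83.04 in WT empty. Hk3, a further hexokinase outside the 37 genes, was 46.2 ± 3.5 CPM in WT empty and 18.8 ± 4.25 in Het empty, a fall with a log2 fold change of -1.3 (edgeR adjusted p = 0.0048, SE 0.24). Of the 13 tested genes in a list of other glycolysis genes, Hk3 was the 1 called, beside the 1.75 percent of all genes called lower. The control kinases had 0 calls of 3: Pdk1, which shuts pyruvate dehydrogenase, had a log2 fold change of 0.26 (-0.01 to 0.54), and Pfkfb3 and Pfkfb4, which make the phosphofructokinase activator fructose 2,6-bisphosphate, had -0.14 (-0.45 to 0.16) and 0.24 (-0.31 to 0.80).

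In the oxygen-sensing and hypoxia group 0 of 14 tested genes were called without the block and 8 with it. Hif1a, the gene of the oxygen-labile subunit, was flat by CPM, at 173, 175 and 177 in WT empty and 171, 177 and 176 in Het empty (log2 0.00, 95 percent interval -0.11 to 0.11). By TPM, which was not tested, Hif1a was lower in Het empty in each same-numbered pair. It had 43.19, 36.11 and 43.82 TPM in WT empty and 39.29, 33.84 and 35.69 in Het empty. Egln1, the main HIF prolyl hydroxylase, measured 109, 124 and 154 CPM in WT empty and 142, 167 and 178 in Het empty, and with the block its log2 fold change was 0.34 (SE 0.09, edgeR adjusted p = 0.0219; 0.658 without). The groups of Egln1 overlapped through WT empty 3. The other called genes were Egln3, a hydroxylase that hypoxia induces, the mitophagy receptors Bnip3 and Bnip3l, Vegfa (a vessel growth factor), Ndrg1, P4ha1 (a collagen prolyl hydroxylase subunit) and Higd1a (a mitochondrial protein). Their log2 fold changes with the block ran from 0.36 for P4ha1 (adjusted p = 0.0409) to 0.85 for Ndrg1 (0.0152), and without it their adjusted p-values ran from 0.676 for Bnip3 to 0.853 for Egln3. Ero1a, Ankrd37, Adm, Ddit4 (an inhibitor of mTORC1 signalling) and Mxi1 (an antagonist of MYC) were not called in either fit.

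**Figure D2:**
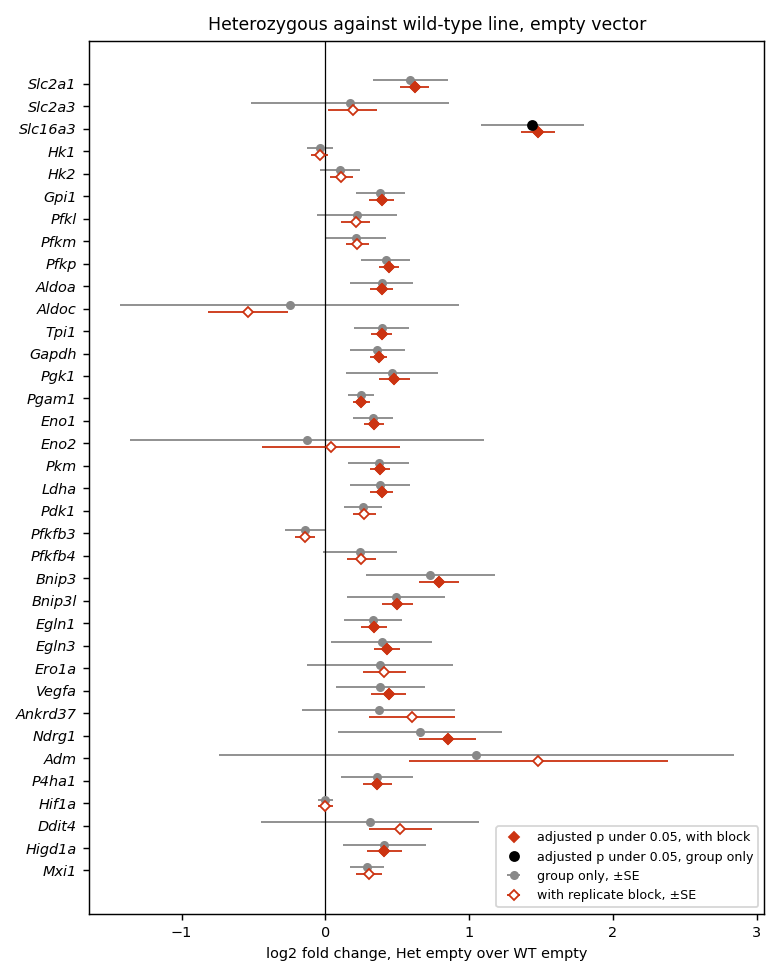
Log2 fold change (x axis) of the 36 tested genes in Het empty over WT empty, with the group alone (circles) and with library number as a block (diamonds), bars ± SE, filled or black where the adjusted p is under 0.05. Slc16a3 lies at 1.44 and is called in both fits; 20 genes are called with the block, and Hif1a lies at 0.00.

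Other lists of metabolism and hypoxia genes were counted in the same comparison, where 1.9 percent of all genes were called higher and 1.75 percent lower, and 4.54 and 4.75 percent with the block. In a list of pentose phosphate genes 1 of 7 was called higher: Pgd, 6-phosphogluconate dehydrogenase, was 198 ± 6.87 CPM in WT empty and 266 ± 8.1 in Het empty (log2 0.42, SE 0.09, edgeR adjusted p = 0.0131). Of 17 genes of the TCA cycle 0 were called and the median log2 fold change was 0.02, and of 11 tested genes for pyruvate entry into mitochondria 0 were called. Among 27 tested genes of a list of other hypoxia targets 1 was called higher and 1 lower. Ak4, a mitochondrial adenylate kinase, measured 6.75, 6.92 and 11.1 CPM in WT empty and 49.7, 54.9 and 76.5 in Het empty (log2 2.87), and Pam, which amidates peptides, averaged 29.7 ± 1.58 CPM against 18.1 ± 1.38 (log2 -0.71). Neither group of libraries overlapped the other for these 2 genes. Of 9 tested HIF subunits and regulators 0 were called. With the block 7 higher and 2 lower were called of the 27 other hypoxia targets, 1 and 2 of the 13 other glycolysis genes, 3 and 0 of 5 serine synthesis genes and 2 and 0 of 4 tested gluconeogenesis genes. It gave 1 call, higher, of the 7 pentose phosphate genes, 1 of the 17 TCA cycle genes and 1 of the 9 HIF subunits and regulators, and 0 of the 11 genes for pyruvate entry.

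Markers of progenitors and of other blood cells also differed between the lines. Among the progenitor markers Ptprc was called higher in Het empty (log2 0.7, SE 0.08, edgeR adjusted p = 0.000121) and Flt3 lower (log2 -0.65, SE 0.09, 0.000463). Over all genes 1.9 percent were called higher and 1.75 percent lower. The summed level of the progenitor markers overlapped, at 3345 to 3719 CPM in WT empty and 3149.8 to 3480.4 in Het empty. Of 10 tested neutrophil markers 2 were called higher and 1 lower in Het empty, and their summed level was 847 to 1377 CPM in WT empty and 939 to 2077 in Het empty. With the block 6 of them were called higher and 1 lower. Most of the summed level was Mpo, myeloperoxidase, at 1029.9, 1144 and 705 CPM in WT empty and 1961, 2006 and 906 in Het empty. Of 9 tested monocyte and macrophage markers 3 were called higher and 3 lower (500.3 to 621 CPM in WT empty, 319 to 344 in Het empty), and with the block 4 higher and 3 lower. Of 5 tested mast cell and basophil markers 4 were called lower (57 to 110.1 CPM against 25.8 to 28.2), with Tpsb2 and Fcer1a at 0. One of 6 tested erythroid markers was called lower (8.01 to 12.2 CPM against 4.26 to 5.52), with Hba-a1 at 0. In these bulk samples fewer cells of a type and less RNA per cell cannot be told apart, and the part of these markers in the results on the 37 genes was not tested.

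The other 3 heterozygous groups were set against the same WT empty libraries, so the comparisons share them. Slc16a3 was again the 1 gene of 36 called higher and 0 were called lower in each. It measured 67.8, 64.1 and 99.5 CPM in Het DDX41, 56.9, 57.9 and 116 in Het G173R, and 60, 68.9 and 93.9 in Het R525H. All of these libraries were above all 3 of WT empty. The log2 fold changes were 1.46, 1.46 and 1.40 (edgeR adjusted p = 0.0343, 0.0389 and 0.0321), and over all genes 2.36, 2.12 and 3.09 percent were called higher and 2.19, 1.66 and 3.59 percent lower. The Slc16a3 call was lost in each comparison without WT empty 1 or 2 (adjusted p between 0.124 and 0.202), without library 3 of the heterozygous group (0.113 to 0.148), and without library 1 or 2 of Het DDX41 (0.0698 and 0.0587) or of Het R525H (0.0524 and 0.0698). A fit of only the 2 groups gave 0.0574, 0.164 and 0.0419, and the last kept the call. All 3 heterozygous libraries were above all 3 wild-type ones for 14 of the 36 genes in Het DDX41, 2 in Het G173R and 6 in Het R525H, beside 10.5, 7.27 and 11.7 percent of all genes. An unadjusted p under 0.05 was reached by 15, 9 and 6 of the 36, beside 15.7, 12.7 and 18.8 percent. The 36 genes had median log2 fold changes of 0.49, 0.43 and 0.39. In libraries 1 and 2 alone, 25, 14 and 25 of 35 tested genes were called higher, beside 4.6, 3.78 and 6.63 percent of all genes.

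**Figure D3:**
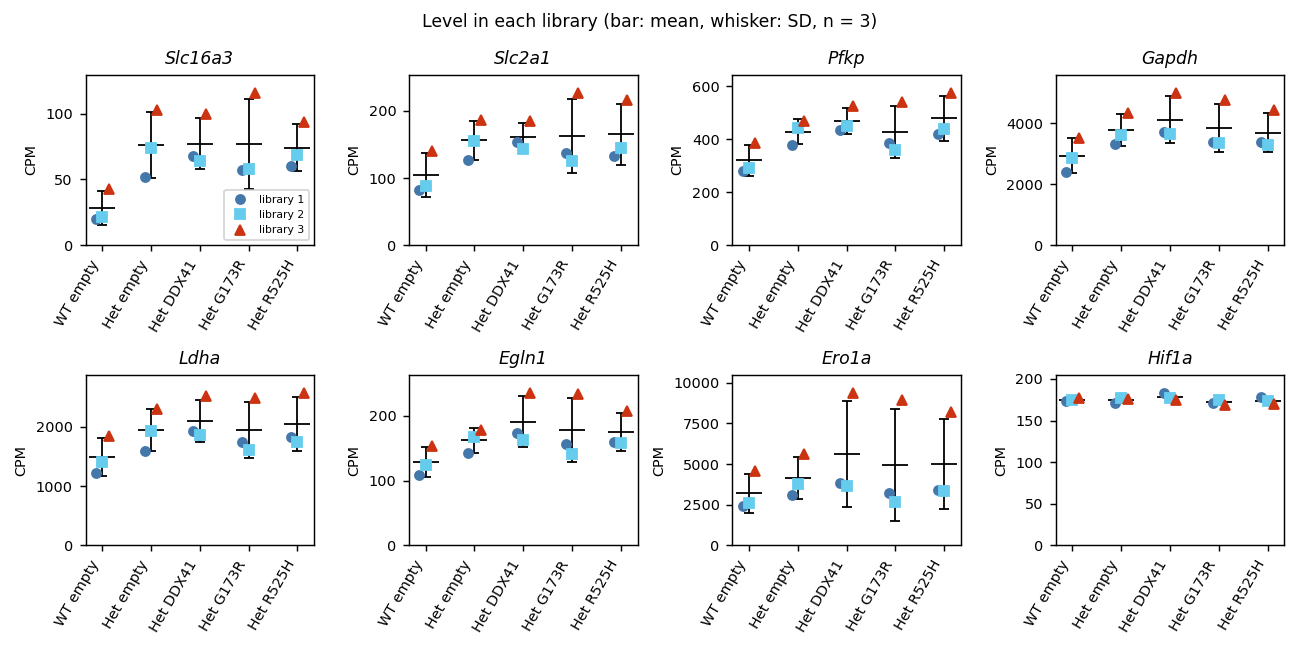
CPM (y axis) of 8 genes in each library of the 5 groups (x axis), with library number by symbol, the group mean as a bar and the SD of 3 libraries as a whisker. All WT empty libraries of Slc16a3 (19.8 to 43.1 CPM) lie below all heterozygous ones (52.2 to 116), Hif1a stays between 169 and 183 CPM, and the library numbered 3 is the highest of its group in each panel except that of Hif1a.

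Between the vectors in the heterozygous line no member was called without the block. The comparisons with Het empty share its libraries. In edgeR and limma voom 0 of the 36 genes were called for Het DDX41, Het G173R or Het R525H against Het empty, and in DESeq2 0 of the 34 or 35 given an adjusted p. In edgeR 0 had an unadjusted p under 0.05, beside 1.75, 0.605 and 4.98 percent of all genes. Over all genes tested 0, 0 and 0 percent were called higher and 0, 0 and 0.0137 percent lower. Slc16a3 differed from Het empty by 0.02 with wild-type DDX41 (95 percent interval -0.74 to 0.77), by 0.02 with G173R (-0.74 to 0.77) and by -0.04 with R525H (-0.80 to 0.72) on the log2 scale. Each interval ends short of a fall as large as the 1.44 between the lines, and smaller changes lie within them. For Slc2a1 the differences were 0.04 (-0.52 to 0.60), 0.07 (-0.50 to 0.63) and 0.08 (-0.48 to 0.64).

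The members with the smallest p-values in these comparisons differed by vector. With wild-type DDX41 they were Egln1, at 174, 163 and 235 CPM against 142, 167 and 178 in Het empty (log2 0.23, 95 percent interval -0.20 to 0.66), and Pfkfb3, at 64, 64.3 and 50.7 against 74.2, 64.5 and 61.2 (log2 -0.16, -0.46 to 0.15). With G173R they were Ankrd37, at 15.9, 8.17 and 38.8 CPM against 13.1, 17.6 and 15.3, and Adm, with 1, 0 and 30 counts against 3, 1 and 9. Both rested on library 3 of Het G173R. Without it the log2 difference of Ankrd37 went from 0.45 to -0.36 and that of Adm to -2.73, and Ankrd37 was also at -0.36 in libraries 1 and 2 alone.

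With R525H they were Pfkm, the muscle-type phosphofructokinase, and Pfkfb4. Pfkm measured 47.8, 48.3 and 62.8 CPM in Het R525H, 58.6, 64.1 and 80.2 in Het empty, 62.5, 61.4 and 86 in Het DDX41, and 63.2, 56.4 and 90.7 in Het G173R. Each R525H library was below its same-numbered partner in all 3 other heterozygous groups, although library 3 of Het R525H overlapped with them. Against Het empty the log2 difference was -0.35 (95 percent interval -0.80 to 0.09, edgeR adjusted p = 1). Against Het DDX41 it was -0.40 (SE 0.21, adjusted p = 1), and with the block -0.39 (SE 0.08, adjusted p = 0.0435). Against Het G173R it was -0.41 (SE 0.21, adjusted p = 0.808), and with the block -0.39 (SE 0.08, adjusted p = 0.0272). Pfkm was the 1 of 36 genes called lower with the block in these 2 comparisons, beside 0.247 and 0.584 percent of all genes. Both comparisons use the same Het R525H libraries, so the calls are not independent. Pfkm in Het R525H was near its level in WT empty, where it measured 46.6, 57.8 and 70.7 CPM (log2 -0.14, 95 percent interval -0.59 to 0.30).

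Pfkfb4 lay the other way. It measured 8.72, 9.74 and 13.8 CPM in Het R525H, 6.97, 7.76 and 11.3 in Het empty, 7.52, 7.52 and 9.43 in Het DDX41 and 7.08, 6.99 and 10.8 in Het G173R. Each R525H library exceeded its same-numbered partner in the other heterozygous groups, with overlap between numbers. The log2 differences were 0.30, 0.39 and 0.37, and none was called with or without the block (adjusted p with the block = 0.141 against Het DDX41 and 0.102 against Het G173R). Without the block 0 of 36 genes were called between the 3 DDX41 vectors in edgeR or limma voom, or of the 34 or 35 tested in DESeq2, and 0 had an unadjusted p under 0.05 in edgeR. Over all genes tested 0 percent were called higher and 0 lower for G173R or R525H against wild-type DDX41, and 0.0275 and 0.055 percent for R525H against G173R. The shares at an unadjusted p under 0.05 were 1.54, 3.99 and 6.39 percent of all genes for G173R and R525H against wild-type DDX41 and R525H against G173R. Of the 36 genes 21 were lower in Het R525H than in Het DDX41 in all 3 same-numbered pairs, beside 19.4 percent of all genes. The median differences in these pairs were -0.14, -0.06 and -0.1 on the log2 scale. Most of the 36 genes varied together over the libraries, so the 21 are not separate observations. In the comparison of G173R with wild-type DDX41 the smallest p-values belonged to Hif1a (172 ± 2.74 against 178 ± 4.42 CPM, log2 -0.05, -0.16 to 0.05) and Pfkp (429 ± 98.4 against 469.9 ± 49.7 CPM). The 3 G173R libraries of Hif1a, 171, 175 and 169 CPM, were all below those of Het DDX41 (183, 177 and 175 CPM after rounding), which held for 3.4 percent of all genes tested.

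For each vector against Het empty, the median difference of the 36 genes changed sign with library number. For Het G173R over Het empty the median of the 36 genes was 0.10 between libraries 1, -0.27 between libraries 2 and 0.28 between libraries 3, with 32, 1 and 33 of 36 genes higher. For Het DDX41 the medians were 0.22, -0.05 and 0.20, and for Het R525H 0.11, -0.14 and 0.12. Over all genes these pair medians lay between -0.01 and 0.01. An F test for any difference among the 5 groups called 0 of 36 genes in edgeR and limma voom and 0 of 35 in DESeq2, beside 3.7 percent of all genes in edgeR, and 3 of 36 had an unadjusted p under 0.05 beside 11.9 percent. In libraries 1 and 2 alone it called 17 of 35, beside 7.36 percent.

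Most of the 37 genes also differed between library numbers within the groups. Against libraries 1 and 2, with the group in the model, 33 of the 36 tested genes were higher in the libraries numbered 3 and 1, Pfkfb3, was lower. Over all genes tested 21.1 percent were higher and 25 percent lower, so 46.1 percent were called and a call alone separates no gene from the rest. The median log2 difference was 0.56 for the 36 genes and 0 over all genes. Library 3 was above both others in all 5 groups for 30 of the 36, beside 12.2 percent of all genes, and for 10 of the 36 each of the 5 libraries numbered 3 was above each of the 10 others, beside 4.47 percent. Without Adm, which reached the filter minimum only in libraries numbered 3, 32 of 35 were higher and 1 lower, and these last 2 counts were 29 and 9. Library 2 against library 1 gave 0 calls among the 36 and 0 percent over all genes in edgeR; 1 of the 36 (Hk1) had an unadjusted p under 0.05, beside 10.9 percent of all genes, and DESeq2 and limma voom also called 0.

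**Figure D4:**
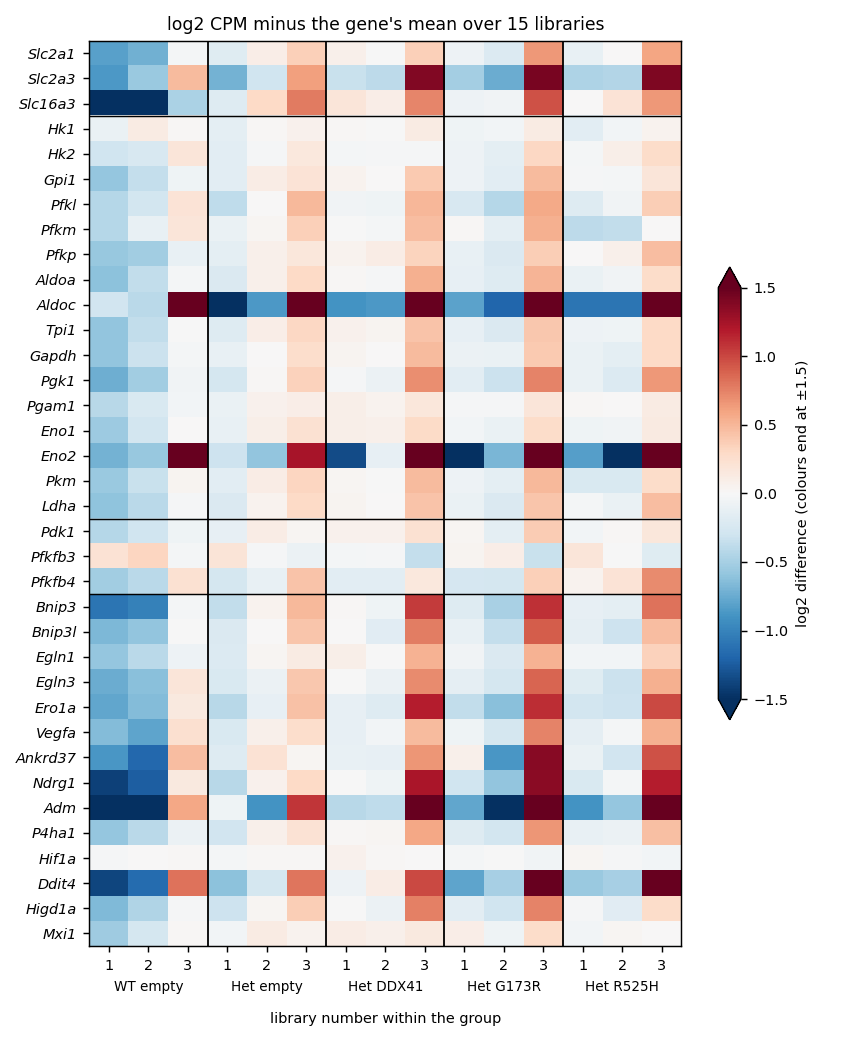
Log2 CPM of the 36 tested genes (rows, by role) in the 15 libraries (columns), minus each gene's mean over the libraries; red is above the mean and blue below, and colours end at 1.5 in either direction. The third column of each group is the reddest for nearly all genes, WT empty 1 and 2 are the bluest for most, Pfkfb3 runs the other way, and Hif1a is near 0 throughout.

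The 8 genes with the largest differences were Adm, Eno2, Aldoc, Ddit4, Slc2a3, Ndrg1, Ero1a and Ankrd37. Aldoc, a brain-type aldolase, measured between 0.512 and 1.27 CPM in the 10 libraries numbered 1 or 2 (median 0.823) and between 4.59 and 7.52 in the 5 numbered 3 (median 4.9). Its log2 difference was 2.77 (SE 0.17, edgeR adjusted p = 9.45e-08). Eno2, the neuronal enolase, measured 0.125 to 0.702 CPM (median 0.454) and 1.89 to 4.29 (median 2.59), a log2 difference of 2.78 (SE 0.29). For both genes the 2 sets of libraries did not overlap. Adm, the gene of the peptide adrenomedullin, had 14 counts in all 10 libraries numbered 1 or 2 and 84 in the 5 numbered 3. It passed the count filter only through libraries numbered 3, so its log2 difference of 3.69 (SE 0.47) had to be positive. P4ha2 had 4 and 13 counts and was not tested.

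Slc2a3 measured 110.1 to 163 CPM (median 143) in libraries 1 and 2 and 279.6 to 538 (median 524) in libraries 3, a log2 difference of 1.60 (SE 0.11, edgeR adjusted p = 2.71e-07). Its libraries numbered 3 were higher in the groups with a DDX41 vector, at 524, 538 and 528 CPM, than with empty vector, at 279.6 in WT empty and 306 in Het empty. Each of these values is 1 library. In libraries 1 and 2 Slc2a3 overlapped, at 119 to 159 CPM with a DDX41 vector, 110.1 and 136 in WT empty and 123 and 163 in Het empty. Ddit4 measured 7.87 to 22.3 CPM (median 14.2) and 35.9 to 63.5 (median 41), a log2 difference of 1.74 (SE 0.14). Both genes had no overlap between the 2 sets of libraries. Ndrg1 measured 16.1 to 44.4 CPM (median 35.6) and 47.3 to 109 (median 96.4), a log2 difference of 1.27 (SE 0.13). Ero1a measured 2412 to 3810.4 CPM (median 3281) and 4569.5 to 9356 (median 8192), a log2 difference of 1.16 (SE 0.1). Neither overlapped. In WT empty 3 and Het empty 3 Ero1a was at 4569.5 and 5605 CPM, below the 9356, 8904 and 8192 with a DDX41 vector. These too are 1 library per group. In libraries 1 and 2 Het empty (3104 and 3803) lay within the range with a DDX41 vector (2681 to 3810.4), and WT empty (2412 and 2632) lay below it. Ankrd37, an ankyrin repeat protein, measured 6.62 to 17.6 CPM (median 13.5) and 15.3 to 38.8 (median 23.8), with overlap, and in Het empty library 3 (15.3) lay between libraries 1 and 2 (13.1 and 17.6).

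The abundant enzymes rose by less. Gapdh, Tpi1, Aldoa, Pkm and Ldha had log2 differences of 0.42, 0.42, 0.48, 0.48 and 0.48, Pgk1 0.72, Eno1 0.28, and Pgam1 0.16. Pfkl, the liver-type phosphofructokinase, had the largest difference among the 3 phosphofructokinase genes, at 0.64 (217 to 292 CPM in libraries 1 and 2, 338 to 433 in libraries 3, no overlap), against 0.46 for Pfkm and 0.37 for Pfkp. Hk2 and Hk1 had 0.28 and 0.11. Slc16a3 and Slc2a1 had 0.79 and 0.58. Of the other hypoxia targets Bnip3 had 1.03, Egln3 0.81, Bnip3l 0.77, Vegfa 0.68, Higd1a 0.64 and P4ha1 0.55, and the edgeR adjusted p of each of these 6 was at most 2.82e-05.

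Hif1a, Mxi1 and Pfkfb3 were not called higher. Hif1a measured 171 to 183 CPM in libraries 1 and 2 and 169 to 177 in libraries 3 (log2 -0.02, 95 percent interval -0.08 to 0.05). Mxi1 measured 36 to 56.8 and 52.5 to 62.9 CPM (log2 0.15, 0.02 to 0.29, edgeR adjusted p = 0.0617). Pfkfb3, the inducible activator of phosphofructokinase, was called lower, with a log2 difference of -0.30 (edgeR adjusted p = 0.000197, SE 0.05). It measured 64 to 81.3 CPM in libraries 1 and 2 (median 68.5) and 50.7 to 64 in libraries 3 (median 57.3), and each library numbered 3 was below each of the 10 others, as held for 6.63 percent of all genes. Its partner Pfkfb4 rose by 0.57.

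**Figure D5:**
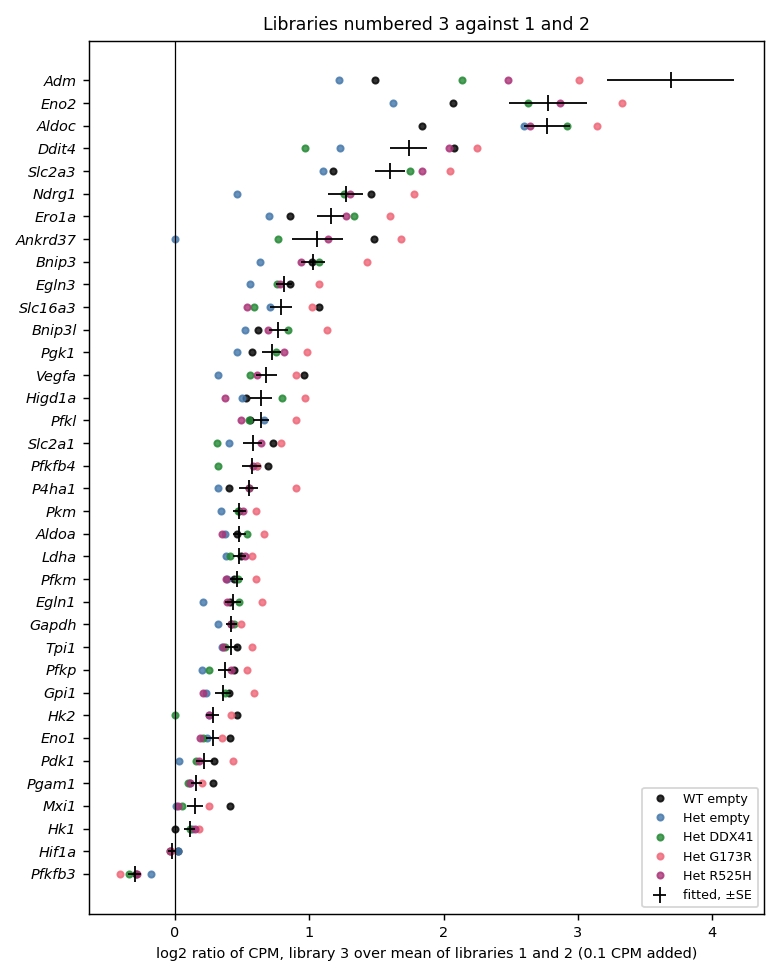
Log2 ratio of CPM in library 3 over the mean of libraries 1 and 2 (x axis, after adding 0.1 CPM) for the 36 tested genes in each of the 5 groups (coloured points), with the fitted difference and its SE (black), in order of the fitted value. The order runs from Adm at 3.69 to Pfkfb3 at -0.30, and Het G173R (pink) is the highest point for most genes.

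The difference by number was present in each group. The median fold of library 3 over the mean of libraries 1 and 2 was 1.42 in WT empty, 1.3 in Het empty, 1.42 in Het DDX41, 1.65 in Het G173R and 1.43 in Het R525H. A test of whether the difference varied among groups called 0 of the 36 genes in edgeR, beside 0.0894 percent of all genes tested, and 9 of the 36 had an unadjusted p under 0.05 beside 12.1 percent. With no filter on low counts 13 of the 36 were called, beside 4.76 percent, so whether the size varied among groups depended on the filter. The smallest unadjusted p-values were those of Ddit4 (0.000603), Ero1a (0.00424), Ndrg1 (0.00487) and Slc2a3 (0.00731), with adjusted p of 0.124 to 0.224.

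Counts of other lists by library number are read against the 21.1 percent of all genes called higher and the 25 percent called lower. In the list of other hypoxia targets 16 of 27 were higher in libraries 3 and 1 lower. Bhlhe40, a circadian and hypoxia-induced repressor, rose by 1.78 on the log2 scale, Hmox1, heme oxygenase, by 1.41 and Wsb1, a ubiquitin ligase adaptor, by 0.55. Of 9 tested HIF subunits and regulators 3 were higher and 2 lower, among them Vhl, the subunit that recognises hydroxylated HIF, at 0.46, Arnt, the constant HIF partner, at 0.30, and Cul2 at -0.17. Of 13 tested other glycolysis genes 4 were higher and 2 lower, with Pgm1 at 0.60, the lactate transporter chaperone Bsg at 0.46 and Slc2a6 at 0.30, beside 46.1 percent of all genes called in either direction. The TCA cycle list had 0 higher and 10 lower of 17, with Idh3a at -0.30, Ogdh at -0.27 and Sdha at -0.23. Of 7 pentose phosphate genes 0 were higher and 4 lower, among them Taldo1 at -0.29.

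Lists outside metabolism were counted against the same shares. Of 9 immediate early genes 7 were higher in libraries 3 and 0 lower, and their summed level was 159.5 to 234 CPM in libraries 3 and 91.8 to 150.2 in libraries 1 and 2. Of 10 tested neutrophil markers 2 were higher and 5 lower (summed 632 to 939 CPM against 1216 to 2077). Elane, neutrophil elastase, was at -1.62 and Mpo, which made up most of this sum, at -1.12 on the log2 scale. Of 13 mitochondrial mRNAs 0 were higher and 6 lower. Their share called in either direction was near the 46.1 percent of all genes, but every call was lower, beside 25 percent of all genes. The part of these lists and of any batch that a number may mark in the values of the 37 genes was not tested.

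Over log2 CPM in the 15 libraries, the correlation of each tested gene with the mean of the other 35 lay between 0.61 (Hk1) and 0.99 (Egln3) for 34 genes, was -0.94 for Pfkfb3 and -0.23 for Hif1a. The points share their libraries and the difference by number, and the values are given as a description. Because most of these genes varied together, counts of members that differed in the same direction are not counts of separate observations. After the means of groups and numbers were removed, the most strongly shared variation was that of Egln3 (0.96), Bnip3 (0.95), P4ha1 (0.94), Egln1 (0.93) and Pdk1 (0.93), while Eno2 and Pfkfb4 had 0.22 and 0.23, Hif1a -0.10 and Pfkfb3 -0.60. The mean centred log2 level of all tested members ran from -0.65 in WT empty 1 to 0.77 in Het G173R 3.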

How the data were processed

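RNA was measured in 15 libraries, 5 groups of 3, grouped and numbered by the sample titles. Per the labels' protocols, ribosomal RNA was removed and stranded libraries were made from total RNA. The authors deposited 1 table per sample made with RSEM, per the submitters' processing notes. Its version, aligner, genome build and strand setting: not given in the sources used here. By gene, and per the file headers, the tables give the authors' expected count, which splits reads that match several genes, and their TPM and FPKM; between 6.26 and 6.92 percent of the listed genes had a count more than 0.005 from a whole number, called not whole. Deposited TPM were used for levels between genes and, for some genes, set beside CPM in Het empty and WT empty without a test. Deposited FPKM were not used.

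After rounding to whole numbers, the expected counts entered edgeR 4.0.16 (R 4.3.3): filterByExpr by group (14548 of 55359 genes), TMM scaling (factors 0.9687 to 1.057), 1 quasi-likelihood model over all 15 libraries with the group as its only term, Benjamini-Hochberg adjustment over the genes tested, and a call at an adjusted p under 0.05. Each SE was obtained by dividing the log2 fold change by the root of F. Library numbers were contrasted in a model with group and number. Symbols are those of the tables; Aldoa occurs for 2 genes, of which the more abundant was used. Promoters came from RefSeq (GRCm38.p6) by symbol, and no coordinates of the deposited files were used.

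To see whether same-numbered libraries deviated together, deviations from the group means were correlated over genes between libraries with the same number. Library 3 stood apart in every group, so the remaining libraries of a group deviate the other way from its mean. Their correlations can be positive through that shift alone, so the check cannot decide whether the remaining libraries pair by number. The 3 correlations all exceeded 0.1 for Het empty with WT empty (0.358 to 0.49), Het G173R with Het empty (0.181 to 0.399) and among the 3 DDX41 vectors (lowest 0.28, 0.321 and 0.287), and for these the blocked fit is given beside the results. The labels do not say what a number marks.

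The 37 genes, the lists and the tests were chosen with earlier results of these data known. Values per library are given for genes called between the lines (the 12 with the smallest p), the called or 2 smallest-p genes of other comparisons, the 8 largest differences by library number and those called the other way, and genes near the filter; per other list at most 3 called genes are named. Members outside that rule that are given with values were chosen after their values were seen. Alternatives were DESeq2 1.42.0, limma voom 3.58.1, other scalings and filters, the block, fewer groups and leaving out libraries. The tests were tried on simulated data with known changes.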

Additional observations from a re-analysis of the deposited data

How the results depend on the processing

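The median log2 fold change of the members in Het empty over WT empty stayed positive in all 15 alternatives. The number of genes called higher in Het empty than in WT empty (1) was 20 with the replicate block, 25 with libraries 1 and 2 alone, 0 with a minimum of 1 CPM in 3 libraries, 0 in a fit of only these groups, and 0 to 2 when 1 library was left out (0 without WT empty 1 or 2 or Het empty 2 or 3, and 2 without WT empty 3). Against WT empty the number called higher with the replicate block was 25 for Het DDX41, 22 for Het G173R and 23 for Het R525H. In that fit 1 (Pfkfb3) was lower in Het DDX41 and 1 in Het G173R. No share over all genes is given here for these blocked counts. The same-numbered correlations with WT empty fell under 0.1 for libraries 1 (-0.0805, 0.0962 and 0.0228). They were 0.193, 0.396 and 0.24 for libraries 2 and 0.441, 0.459 and 0.365 for libraries 3. The number called higher than in WT empty was 25, 14 and 25 with libraries 1 and 2 alone. In DESeq2 it was 3 (Het DDX41) and 2 (Het R525H), and with no filter 2 for Het R525H. Fits of only the groups compared gave 0 for Het DDX41 and Het G173R. Leaving out 1 library gave 0 to 3 for Het DDX41, 0 to 2 for Het G173R and 0 to 3 for Het R525H, with 0 without WT empty 1 or 2, without library 3 of the heterozygous group, and without library 1 or 2 of Het DDX41 or Het R525H; the highest values came without WT empty 3. With the block 1 gene (Pfkm) was lower in Het R525H than in Het DDX41 and 1 than in Het G173R, and the block made no other call between heterozygous groups. For any difference among the 5 groups 24 genes were called with the block, 1 with no filter and 17 with libraries 1 and 2 alone. The last stood beside 7.36 percent of all genes, and no such share is given here for the block or for no filter. For a difference by number that varied among groups 13 were called with no filter. The log2 difference of Ankrd37 in Het G173R from Het empty reversed to -0.36 with libraries 1 and 2 alone and, over the libraries left out 1 at a time, ranged from -0.36 (without Het G173R 3) to 0.84; that of Adm was -0.17 in limma voom and ranged from -2.73 (without Het G173R 3) to 2.25. The number higher in libraries 3 stayed between 31 and 34 of 36 and the number lower at 1 in all alternatives run. The cause of these changes was not tested. Depth limits Adm, P4ha2, Eno2 and Aldoc, whose counts per library were at most 30, 5, 151 and 265.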
